A study of Mus musculus with 10 samples.

Results

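The glucocorticoid receptor gene Nr3c1 and 6 genes that glucocorticoids are known to induce, Tsc22d3, Fkbp5, Per1, Sgk1, Ddit4 and Errfi1, were followed through RNA sequencing of lung group 2 innate lymphoid cells (ILC2), lymphocytes without antigen receptors that secrete type 2 cytokines. They were picked by gene name from the deposited count table and make up 7 of its 54838 gene rows. The cells came from C57BL/6 mice, either c-Maf KO or WT, after papain, a protease allergen, had inflamed the lungs. There were 5 KO libraries and 5 WT libraries, from cohoused littermates. ILC2 had been sorted as lineage-negative, CD90.2-positive cells with or without ST2 and KLRG1. The sources used here do not state which cells lost c-Maf, how the allele was made or how old the mice were. Library numbers follow the order of deposit and link no KO to a WT library. The titles give every library a number of its own, but no label states that it came from 1 mouse, and p-values cover the spread between the libraries alone.

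Glucocorticoids are adrenal steroid hormones that dampen inflammation, and their synthetic forms are a mainstay of asthma treatment. Without hormone the receptor is held in the cytoplasm by HSP90 chaperone complexes. With hormone it enters the nucleus, binds palindromic response elements and switches on genes such as those above, several of which feed back on the receptor or on growth and kinase signals. Per1, Sgk1, Ddit4 and Errfi1 are also known to respond to stress, growth factors or the circadian clock, so their transcripts are not a readout of the hormone alone.

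The KO libraries stood apart from the WT libraries in depth and content. They held 3620002 to 9867580 counts each, against 21400938 to 24489987 in WT. Of the 7490 genes tested, a KO library held 3 counts or fewer for 54.6 to 82%, against 0.694 to 3.51% in a WT library. KO library 1 was the poorest, and 19% of its counts came from the 4 globin genes. Maf, the targeted gene, had 0, 0, 0, 108 and 0 counts in KO libraries 1 to 5, against 3252, 3832, 1412, 1696 and 2727 in WT libraries 1 to 5. By edgeR with all libraries Maf did not pass. It passed as lower in 3 of 19 alternatives. These were DESeq2 (adjusted p = 0.047), voom (adjusted p = 0.00572) and edgeR without KO library 4 (adjusted p = 0.00525). A gene that did not pass is therefore not shown to be unchanged. Each of the 10 ILC2 markers had counts in both groups, and they summed to 4055 to 19790 CPM in KO and 3107 to 5271 CPM in WT. In raw counts, KO library 1 held 3561 for these markers among its 4757345. The other KO libraries held 45263 to 136354 and the WT libraries 137714 to 238639. Single markers were uneven in KO. Il5 had 0, 1, 23, 72 and 345 counts in KO libraries 1 to 5, against 2839 to 4705 in WT, and Il13 had 4 to 2333 in KO, against 21179 to 42827 in WT. Klrg1 had 1 and 2 counts in KO libraries 1 and 3, while Thy1 reached 89243 in KO library 2 and Rora 63198 in KO library 3. CPM are counts scaled to a common library size by TMM, whose factors were 0.185 to 0.872 in KO and 1.5 to 1.94 in WT, so the scaling itself separates the groups. The factor of 0.185 was that of KO library 1, and its 4055 CPM of ILC2 markers rest on it. The reads carry no molecular identifiers and are not independent molecules, so intervals below cover counting error only.

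The perfect response element of the receptor could be read in the promoter letters of 1 of the 6 genes with a promoter window. RefSeq promoter windows, taken as the 250 bases before each annotated start (GRCm38.p6), exist in the table used here for 6 of the genes, 15 windows in all. On either strand, the perfect palindrome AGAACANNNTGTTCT stood in 1 of the 15, a window of Sgk1, and in 3 of all 32851 windows (0.00913%). Its half-site AGAACA stood in 4 of the 15, windows of Sgk1 and Tsc22d3, and in 16.1% of all windows. Imperfect palindromes and bases outside these windows were not searched. The E-box CACGTG, the motif of the clock factors CLOCK and BMAL1, stood in 3 of the 15 windows, those of Fkbp5, Per1 and the same Sgk1 window, and in 6.02% of all windows. These matches describe letters and do not show binding. The Sgk1 and Per1 stretches are shown because Sgk1 carries the receptor's element and Per1 the clock's. Each is given 5′ to 3′ on the plus strand, with 60 bases on either side of the motif and the motif in capitals.
Sgk1, chr10:21993641-21993775, palindrome 189 to 175 bases before the start: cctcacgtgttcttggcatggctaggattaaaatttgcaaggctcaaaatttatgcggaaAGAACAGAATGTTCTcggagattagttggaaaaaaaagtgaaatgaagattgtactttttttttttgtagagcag
Per1, chr11:69098723-69098848, E-box 166 to 161 bases before the start: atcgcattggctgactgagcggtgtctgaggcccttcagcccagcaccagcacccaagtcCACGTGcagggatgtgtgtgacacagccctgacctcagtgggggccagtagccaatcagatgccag

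In WT ILC2 the receptor gene was the most abundant of the 7 per length. Nr3c1 stood at 37.4 ± 12.6 CPM per kilobase of exon (SD, n = 5 libraries, as for the other levels in this paragraph). Per1 followed at 13.1 ± 8.17, Fkbp5 at 5.85 ± 2.76 and Tsc22d3 at 4.01 ± 2.47 CPM per kilobase. Sgk1, Ddit4 and Errfi1 lay close together, at 2.36 ± 1.05, 2.12 ± 1.64 and 1.96 ± 1.36 CPM per kilobase. Nr3c1 was above Per1, and Per1 above Fkbp5, in 5 of 5 WT libraries. Fkbp5 was above Tsc22d3 in 4 libraries and Tsc22d3 above Sgk1 in 4, while Sgk1 was above Ddit4 in 3 and Ddit4 above Errfi1 in 2. The last 3 genes therefore did not separate beyond their spread. By raw counts, not divided by length, Nr3c1 ranked between the 96th and the 98.8th percentile of all genes tested in every WT library.

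**Figure D1:**
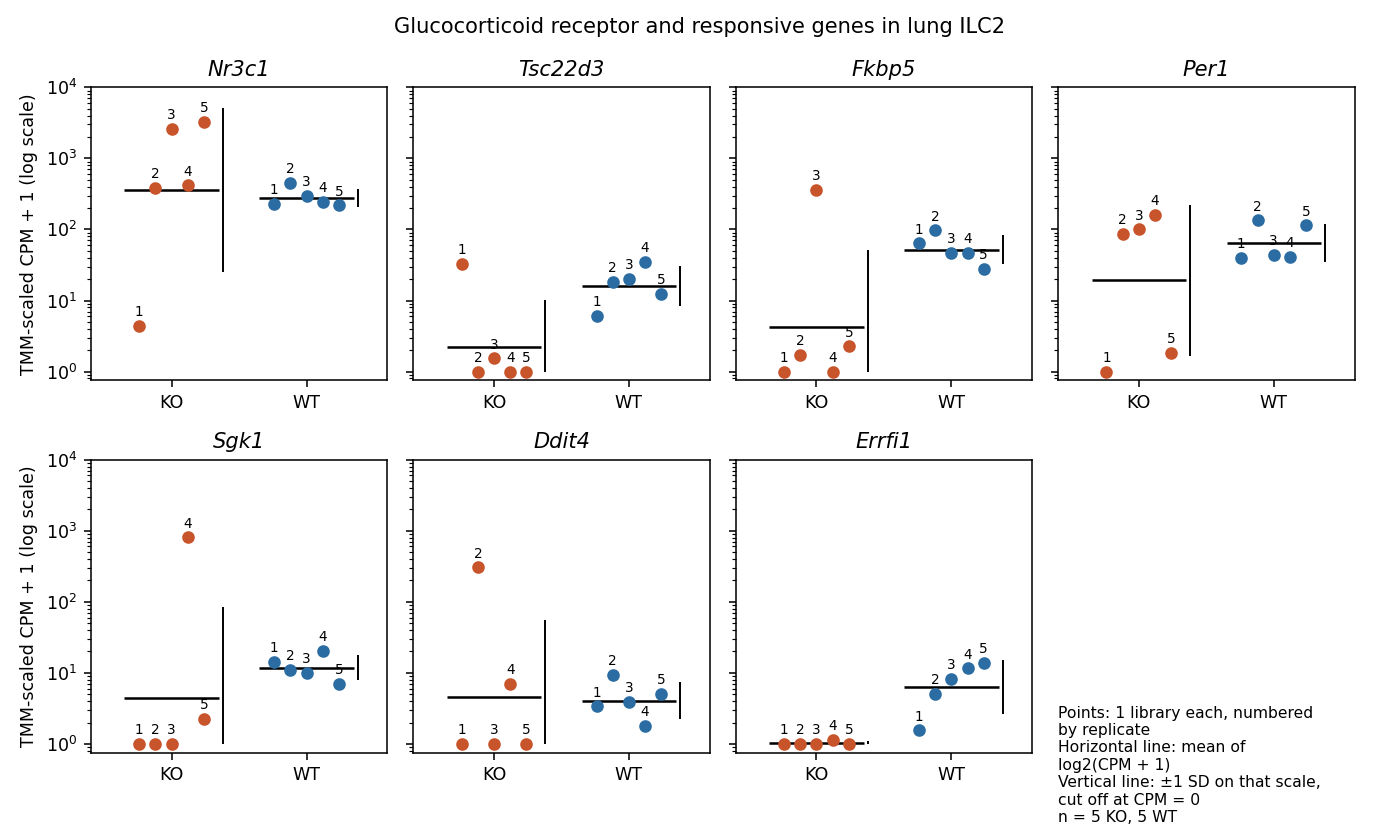
TMM-scaled CPM + 1 on a log axis for the 7 genes, with 1 numbered point per library, KO left and WT right. Horizontal lines are means of log2(CPM + 1) and vertical lines ±1 SD on that scale. In KO, single libraries stand far above the rest for Tsc22d3 (library 1), Fkbp5 (library 3), Sgk1 (library 4) and Ddit4 (library 2), while the highest WT library is 2.09 (Nr3c1) to 22.9 (Errfi1) times the lowest in CPM.

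Nr3c1 encodes the glucocorticoid receptor (ENSMUSG00000024431, GRCm38 chromosome 18, 39410545 to 39519421, minus strand, protein coding). It kept over 3 counts in 4 of 5 KO libraries. In KO libraries 1 to 5 it had 3, 2658, 19498, 3022 and 7610 counts, against 8294, 20893, 10120, 11419 and 9817 in WT libraries 1 to 5. On the TMM scale this was 3.42, 386, 2584, 417 and 3226 CPM in KO, and 230, 452, 294, 244.5 and 216 CPM in WT. KO libraries 3 and 5 were above every WT library, KO library 1 was below every one, and KO libraries 2 and 4 lay among them. The means were 1323 ± 1471 CPM in KO and 287 ± 96.6 CPM in WT (SD, n = 5 each). The log2 fold change of KO over WT was 2.20 (SE 1.26), which did not pass edgeR's quasi-likelihood test (Benjamini-Hochberg adjusted p = 0.236 over all genes tested). Without KO library 1 the value was 2.71 and passed as higher (edgeR adjusted p = 0.0224), where 3.72% of the genes tested were higher. Without KO libraries 1 and 5 together it was 1.91 and did not pass (edgeR adjusted p = 0.0731). With library size alone as the scale, the log2 fold change was 0.95 (edgeR adjusted p = 0.664), and 3 KO libraries lay below every WT library. Of the 690 genes at 100 CPM or more in WT, 85.7% had over 3 counts in at least 4 KO libraries, as Nr3c1 did.

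Fkbp5 encodes FKBP51, an HSP90 cochaperone that lowers the receptor's affinity for hormone and is itself induced by it (ENSMUSG00000024222, GRCm38 chromosome 17, 28399094 to 28517527, minus strand). KO libraries 1 to 5 held 0, 5, 2696, 0 and 3 counts, against 2255, 4443, 1591, 2117 and 1207 in WT libraries 1 to 5. KO library 3 gave 99.7% of the KO counts and stood at 357 CPM, above every WT library, and the other 4 KO libraries were below every one. The means were 71.9 ± 160 CPM in KO and 55.4 ± 26.1 CPM in WT (SD, n = 5 each). The log2 fold change was 0.38 (SE 1.93, edgeR adjusted p = 0.915). Without KO library 3 it turned to −6.46 and passed as lower (edgeR adjusted p = 0.0135, where 37.9% of the genes tested were lower). It also turned negative with library size alone (−0.64) and with voom (−4.99). Of the 2484 genes with a WT mean of 20 to 100 CPM, 57.1% had 3 counts or fewer in 3 or more KO libraries, as Fkbp5 had. Of 6 epithelial markers, Cdh1 had 172 counts in KO library 3 and the others 0 or 1 there, a sum of 22.9 CPM, against 2.6 to 19.4 CPM in WT. Their part in the Fkbp5 value was not tested.

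A single KO library carrying most of a gene's counts was common. Among the 4528 genes tested that had at least 100 KO counts, the richest KO library gave a median of 89.1% of them. In 40.8% of these genes it gave over 95%. In these bulk libraries, fewer cells of a type and less RNA per cell cannot be told apart.

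Tsc22d3 encodes GILZ, a leucine zipper protein through which glucocorticoids restrain NF-kB and AP-1 (ENSMUSG00000031431, GRCm38 chromosome X, 140539528 to 140600659, minus strand). Its counts were 28, 0, 4, 0 and 0 in KO libraries 1 to 5 and 184, 807, 661, 1578 and 522 in WT libraries 1 to 5. On the TMM scale the 28 counts of KO library 1 became 31.9 CPM, within the WT range of 5.1 to 33.8 CPM. Per library size they were 5.89 CPM, below the lowest WT library at 7.65 CPM, so the groups overlap on the TMM scale and do not overlap on the other. The means were 6.48 ± 14.2 CPM in KO and 17.4 ± 10.7 CPM in WT (SD, n = 5 each), with a log2 fold change of −1.48 (SE 1.76, edgeR adjusted p = 0.598). Without KO library 1 the value was −6.83 and passed as lower (edgeR adjusted p = 0.00912, where 33.7% of the genes tested were lower), and without KO libraries 1 and 5 together it was −6.63 (edgeR adjusted p = 0.0159, where 33.4% were lower). KO library 1 was also the library with the globin counts, and of 5 fibroblast markers Col1a2 had 2615 counts there while Col1a1, Lum, Pdgfra and Dcn had 0, 0, 1 and 2. The list summed to 2981 CPM in KO library 1, at most 0.848 CPM in the other KO libraries and 0 CPM in WT. Their part in the Tsc22d3 value was not tested. With RLE size factors and with DESeq2 the Tsc22d3 log2 fold change was 0.86 and 0.78 and did not pass. Tsc22d3 had 3 counts or fewer in 3 KO libraries, and of the 3000 genes with a WT mean of 5 to 20 CPM 91.2% had so few in 3 or more.

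Per1 encodes a repressor of the circadian clock that glucocorticoids induce directly (ENSMUSG00000020893, GRCm38 chromosome 11, 69095217 to 69109960, plus strand). It had 0, 583, 750, 1162 and 2 counts in KO libraries 1 to 5, against 1398, 6180, 1463, 1867 and 5129 in WT libraries 1 to 5. KO libraries 2 and 3, at 84.6 and 99.4 CPM, lay within the WT range of 38.8 to 134 CPM, KO library 4 at 160 CPM lay above it, and KO libraries 1 and 5 lay below it. Per library size, KO library 4 also lay within the WT range. WT libraries 2 and 5 were apart from the other WT libraries, at 134 and 113 CPM against 38.8 to 42.5 CPM. The means were 69 ± 68.8 CPM in KO and 73.6 ± 46 CPM in WT (SD, n = 5 each). The log2 fold change was −0.09 (SE 1.59, edgeR adjusted p = 0.979), and its sign turned with RLE size factors (0.17), with DESeq2 (0.14) and when any of 4 libraries was left out.

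Sgk1 encodes a kinase of ion transport and cell survival, induced by glucocorticoids and mineralocorticoids, and carries the palindrome shown above (ENSMUSG00000019970, GRCm38 chromosome 10, 21882184 to 21999903, plus strand). Counts were 0, 0, 0, 5832 and 3 in KO libraries 1 to 5 and 478, 468, 307, 911 and 272 in WT libraries 1 to 5. KO library 4 reached 805 CPM, against 5.99 to 19.5 CPM in WT, and gave 99.95% of the KO counts. The other 4 KO libraries lay below every WT library. The means were 161 ± 360 CPM in KO and 11.6 ± 5.15 CPM in WT (SD, n = 5 each). The log2 fold change was 3.80 (SE 2.33, edgeR adjusted p = 0.271) with all libraries and −4.99 (edgeR adjusted p = 0.0209, where 37.8% of the genes tested were lower) without KO library 4. Among the 3000 genes in the WT range of 5 to 20 CPM, 72.4% had 3 counts or fewer in 4 or 5 KO libraries, as Sgk1 had. KO library 4 was also the only KO library with Maf counts, and their part in the Sgk1 value was not tested.

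Ddit4 encodes REDD1, an inhibitor of the growth kinase complex mTORC1 that glucocorticoids, hypoxia and energy stress induce (ENSMUSG00000020108, GRCm38 chromosome 10, 59949669 to 59951834, minus strand). In KO libraries 1 to 5 it had 0, 2094, 0, 44 and 0 counts, against 86, 390, 100, 38 and 183 in WT libraries 1 to 5. KO library 2 stood at 304 CPM, above every WT library (0.814 to 8.44 CPM), KO library 4 lay among the WT libraries at 6.07 CPM, and the other 3 were at 0. The means were 62 ± 135 CPM in KO and 3.71 ± 2.88 CPM in WT (SD, n = 5 each). The log2 fold change was 4.06 (SE 2.24, edgeR adjusted p = 0.214). Without KO library 2, which gave 97.9% of the KO counts, it was −1.15 (edgeR adjusted p = 0.542). Ddit4 passed in none of the settings that gave it a p-value, and DESeq2 gave it none. Of 5 mast cell and basophil markers, Kit had 2146 counts in KO library 2 and the other 4, Cpa3 included, were at 0 there, a sum of 311 CPM, against 125 to 246 CPM in WT. Their part in the Ddit4 value was not tested. Among the 1316 genes tested at under 5 CPM in WT, 85.9% had 3 counts or fewer in 3 or more KO libraries, as Ddit4 had.

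Errfi1 encodes MIG6, an inhibitor of the EGF receptor family (ENSMUSG00000028967, GRCm38 chromosome 4, 150853919 to 150868892, plus strand), and was the only one of the 7 to pass the test with all libraries, as lower, where 27.1% of all genes tested were lower. It fell to 1 count over all KO libraries, in KO library 4, against 20, 189, 250, 494 and 576 counts in WT libraries 1 to 5. The groups did not overlap, as for 28.9% of all genes tested with KO lower: the means were 0.0276 ± 0.0617 CPM in KO and 7.03 ± 4.88 CPM in WT (SD, n = 5 each), lower than every WT library in 5 of 5 KO libraries. The fitted log2 fold change was −7.33 (SE 1.47, edgeR adjusted p = 0.00163). As a ratio of counts per scaled library size, WT was 182 times KO (exact 95% interval 32.7 to 7211). Permuting the libraries exactly (two-sided, on log2(CPM + 1)) put Errfi1 at p = 0.00794, the smallest value 5 libraries a group can reach, or 0.0267 after adjustment over all genes tested. That smallest p was reached by 29.7% of all genes tested, and 33.2% passed after adjustment. In the 3000 genes of 5 to 20 CPM in WT, 41% were lower by edgeR and 34.1% had 3 counts or fewer in each of the 5 KO libraries. Thinned to the total of the smallest library, 3620002 counts, every WT library still held 4 to 92 Errfi1 counts. When WT library 2, 3, 4 or 5 was left out, the filter on low counts removed Errfi1, which passed it only through the WT libraries.

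**Figure D2:**
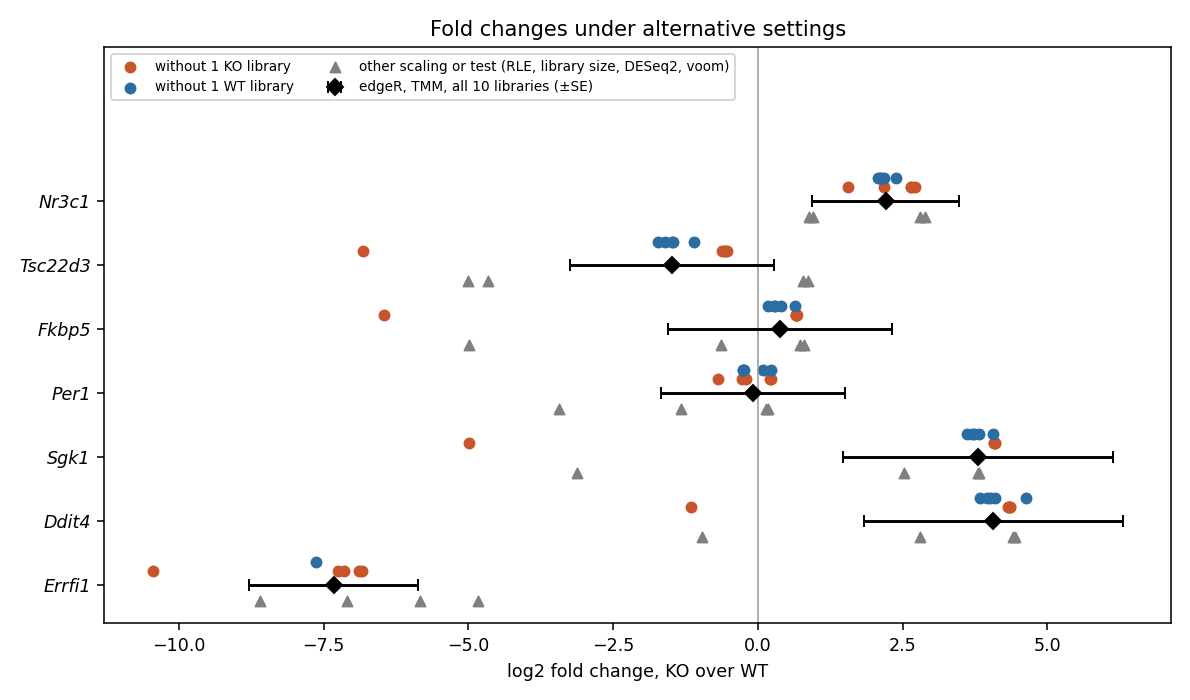
Log2 fold changes of KO over WT for the 7 genes: black diamonds with SE bars are edgeR on all 10 libraries, coloured points leave out 1 library, and grey triangles use another scaling or test. Errfi1 is below 0 in the settings that tested it, Nr3c1 stays above 0, and Fkbp5, Sgk1 and Ddit4 each have 1 coloured point, without a single KO library, at the opposite sign.

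Over the set, 7 of 7 genes passed the filter on low counts, 1 was lower in KO, 0 were higher and 6 did not pass. Of all 7490 genes tested, 27.1% were lower and 1.5% higher, so 1 lower call among 7 does not exceed the background. The 0 higher calls came from edgeR. Of the 7 genes, 0 had an unadjusted p under 0.05 with a positive fold change in that test, and DESeq2 called 0 higher of the 4 it gave a p-value and 13.5% of all genes it tested. DESeq2 gave no p-value to Fkbp5, Sgk1 and Ddit4 (DESeq2 log2 fold changes 0.73, 3.81 and 4.41). It could therefore not call them higher, and its 0 says nothing of these genes. DESeq2 also called 1 lower, Errfi1, and 23.3% of all genes. The median log2 fold change of the 7 genes by edgeR was 0.38, against −0.467 over all genes tested. With library size alone it was −0.64, against −1.825 over all genes tested. The same 2 values over all genes stand beside the list medians below. All 7 genes had over 3 counts in every WT library. KO libraries 2, 3 and 4 held over 3 counts of 4 of the 7 each, against 36.4, 45.4 and 44.9% of all genes tested in those libraries. KO libraries 1 and 5 held over 3 counts of 1 of the 7 each, Tsc22d3 in library 1 and Nr3c1 in library 5, against 18 and 34.9% of all genes tested. KO library 2 held Nr3c1, Fkbp5, Per1 and Ddit4, library 3 held Nr3c1, Tsc22d3, Fkbp5 and Per1, and library 4 held Nr3c1, Per1, Sgk1 and Ddit4. No other annotated gene shares exon bases with any of the 7.

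**Figure D3:**
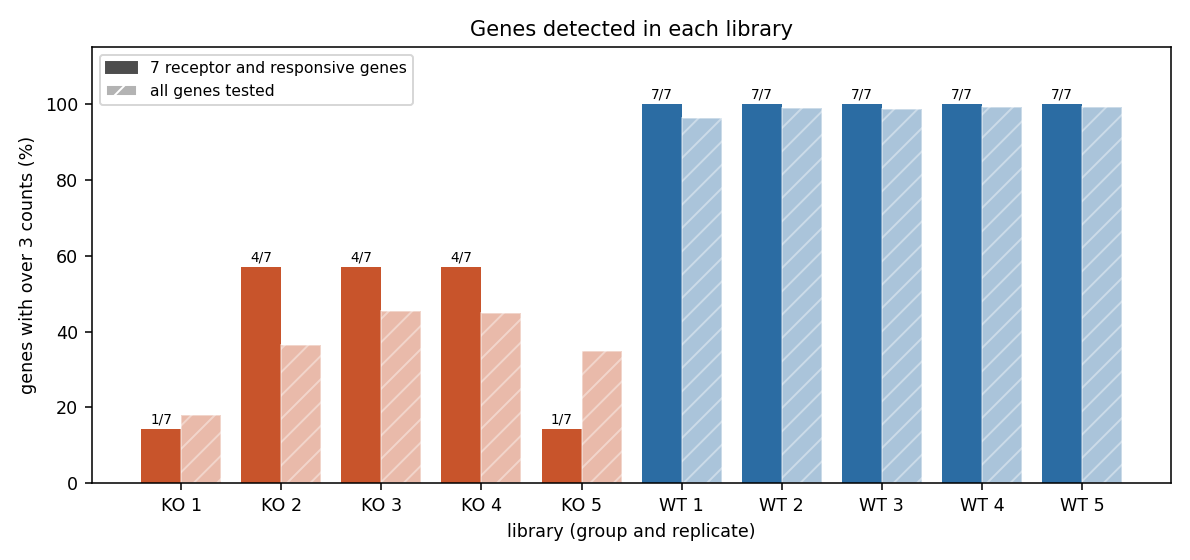
Share of genes with over 3 counts in each library, for the 7 genes (solid bars, labelled with their number) and for all 7490 genes tested (hatched bars), KO libraries left and WT libraries right. All 7 genes were detected in every WT library, and 1 to 4 of them in a KO library.

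Detection of the chaperones that hold the receptor ready for hormone was uneven in KO. Of 17 genes listed, 6 had over 3 counts in 4 or 5 KO libraries, among them Hspa8, Hsp90aa1 and Hsp90ab1, and 8 had 3 counts or fewer in 3 or more. By edgeR, 15 were tested, 2 were lower, 0 higher and 13 did not pass, with a median log2 fold change of 0.22, or −0.94 with library size alone. DESeq2 called 2 lower and 3 higher of 16. Over all genes it called 23.3% lower and 13.5% higher, which is also the background for its calls in the lists below. The DnaJ cochaperone Dnajb1 fell to 0 counts over all KO libraries, against 1764 counts in WT (8.25 ± 3.59 CPM, SD, n = 5), at least 70.2-fold lower with the 5 KO libraries together set to 3 counts (edgeR adjusted p = 0.00163). Ipo13, an importin, had 2 counts in KO and 2007 in WT, a WT to KO ratio of 120 (exact 95% interval 33.1 to 989, edgeR adjusted p = 0.00182). Dnajb1 and Ipo13 passed the filter on low counts through the WT libraries. Both lay at 5 to 20 CPM in WT, where 41% of genes tested were lower. Fkbp4, whose product FKBP52 competes with FKBP51 for the receptor complex, was chosen for mention after its values were seen. It stood at 618 ± 1141 CPM in KO and 14.8 ± 8.39 CPM in WT (SD, n = 5 each, edgeR adjusted p = 0.0763), and 94.2% of its KO counts came from one library. Fkbp4 passed as higher in 5 of 19 alternatives and did not pass in the other 14. The 5 were DESeq2 (adjusted p = 0.00823, where 13.5% of all genes were higher), without KO library 1, 2 or 4, and without KO libraries 1 and 5 together. In the edgeR settings among them, 3.41 to 3.72% of genes tested were higher. Without KO library 3, the source of the 94.2%, Fkbp4 did not pass (edgeR adjusted p = 0.189). With voom its sign turned (log2 fold change −0.22, adjusted p = 0.946).

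Coregulators that bind the hormone-loaded receptor gave 2 lower, 0 higher and 13 not passed of 15 tested, with a median log2 fold change of 1.06 (−0.24 with library size alone). DESeq2 called 2 lower and 4 higher of 14. The genes lower by edgeR were Hdac3 and Hdac2, which encode histone deacetylases. They passed the filter on low counts through the WT libraries. Both lay at 5 to 20 CPM in WT, where 41% of genes tested were lower. Hdac3 had 1 count in KO and 1518 in WT (ratio of WT to KO 181, exact 95% interval 32.5 to 7159, edgeR adjusted p = 0.00174). Hdac2 had 3 counts in KO and 2867 in WT (ratio 114, interval 39 to 553, edgeR adjusted p = 0.00239).

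Few genes of hormone supply and export were measurable: of 12 listed, 4 were tested and 2 were lower. H6pd, the enzyme that feeds cofactor to the cortisone-activating 11-beta-hydroxysteroid dehydrogenase, fell to 4 counts in KO, against 4464 in WT (log2 fold change −6.27, SE 1.59, edgeR adjusted p = 0.00511). That dehydrogenase gene, Hsd11b1, was listed at 0 in all 10 libraries. Abcb1a, a drug efflux pump that exports steroids, had 6 counts in KO and 1436 in WT (edgeR adjusted p = 0.025). Its call was lost with RLE size factors, DESeq2, voom and no filter on low counts, and without any one of KO libraries 1 to 4 (adjusted p up to 0.0854). Abcb1a lay at 5 to 20 CPM in WT, where 41% of genes tested were lower, and H6pd at 20 to 100 CPM, where 14.7% were. Both passed the filter on low counts through the WT libraries. Among 5 related steroid receptors 3 were tested and 0 passed by edgeR, while DESeq2 called 1 higher. The mineralocorticoid receptor gene Nr3c2, whose product shares hormone with the glucocorticoid receptor, stood at 3.47 ± 6.84 CPM in KO and 4.82 ± 4.75 CPM in WT (SD, n = 5 each, edgeR adjusted p = 0.85).

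Of 30 further genes that glucocorticoids induce in various tissues, 15 were tested. Of these 2 were lower, 0 higher by edgeR and 13 did not pass, with a median log2 fold change of 1.13 (−0.47 with library size alone), while DESeq2 called 3 lower and 3 higher of 23. Lpin1, a phosphatidate phosphatase, had 15 counts in KO and 3361 in WT (log2 fold change −4.52, SE 1.26), with an edgeR adjusted p of 0.00967, or 0.0601 with RLE size factors. Bcl6, a transcriptional repressor of lymphocytes, had 29 counts in KO and 5195 in WT (log2 fold change −4.81, SE 1.52, edgeR adjusted p = 0.0225). Lpin1 lay at 5 to 20 CPM in WT, where 41% of genes tested were lower, and Bcl6 at 20 to 100 CPM, where 14.7% were. Lpin1 and Bcl6 passed the filter on low counts through the WT libraries. In 14 inflammatory genes that glucocorticoids repress, 7 were tested and 0 passed by edgeR, while DESeq2 called 1 higher of 8. The 7 had a median log2 fold change of 0.81 by edgeR, or −0.40 with library size alone. Il6, Ptgs2, Tnf and Il2 had positive fold changes, and Icam1, Ccl5 and Csf2 negative ones. The largest positive one was that of Il6, at 5.52 (SE 2.24, edgeR adjusted p = 0.0788), with 93.1% of its KO counts from 1 library. Ccl5, a chemokine, stood at 3.3 ± 5.39 CPM in KO and 27.2 ± 22 CPM in WT (edgeR adjusted p = 0.217). Icam1, an adhesion molecule, stood at 1.53 ± 3.18 CPM in KO and 23.3 ± 11.2 CPM in WT (edgeR adjusted p = 0.091). With library size alone both passed as lower (edgeR adjusted p = 0.0353 for Ccl5 and 0.0347 for Icam1), where 31.5% of genes tested were lower. Icam1 also passed as lower with voom (adjusted p = 0.0144) and without KO library 5 (edgeR adjusted p = 0.00443), where 33.2 and 36.6% of genes tested were lower. It passed without KO libraries 1 and 5 together as well, where 33.4% were lower. Icam1 did not pass in 15 of 19 alternatives and Ccl5 in 18 of 19.

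Immediate early genes, which respond to the same stress and growth signals as several of the 7, gave 1 higher, 0 lower and 10 not passed of 11 tested by edgeR, and 2 higher and 1 lower of 13 by DESeq2. Of all genes tested, edgeR called 1.5% higher and 27.1% lower, and DESeq2 13.5% higher and 23.3% lower. The stress factor gene Atf3 rose to 509 ± 340 CPM in KO, against 30.8 ± 16.9 CPM in WT (SD, n = 5 each, log2 fold change 4.05, SE 1.48, edgeR adjusted p = 0.0486). The call was lost without any one of the 5 WT libraries, with library size alone, with voom, with no filter and when thinned (adjusted p up to 0.193). Atf3 lay at 20 to 100 CPM in WT, where 0.362% of genes tested were higher by edgeR. Clock genes other than Per1 gave 0 calls among 6 tested by edgeR and among 8 by DESeq2. Bhlhe40, a clock repressor, stood at 1888 ± 1478 CPM in KO and 1126 ± 439 CPM in WT (edgeR adjusted p = 0.643). Arntl, which encodes BMAL1, stood at 424 ± 462 CPM in KO and 103 ± 84.1 CPM in WT (edgeR adjusted p = 0.34).

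**Figure D4:**
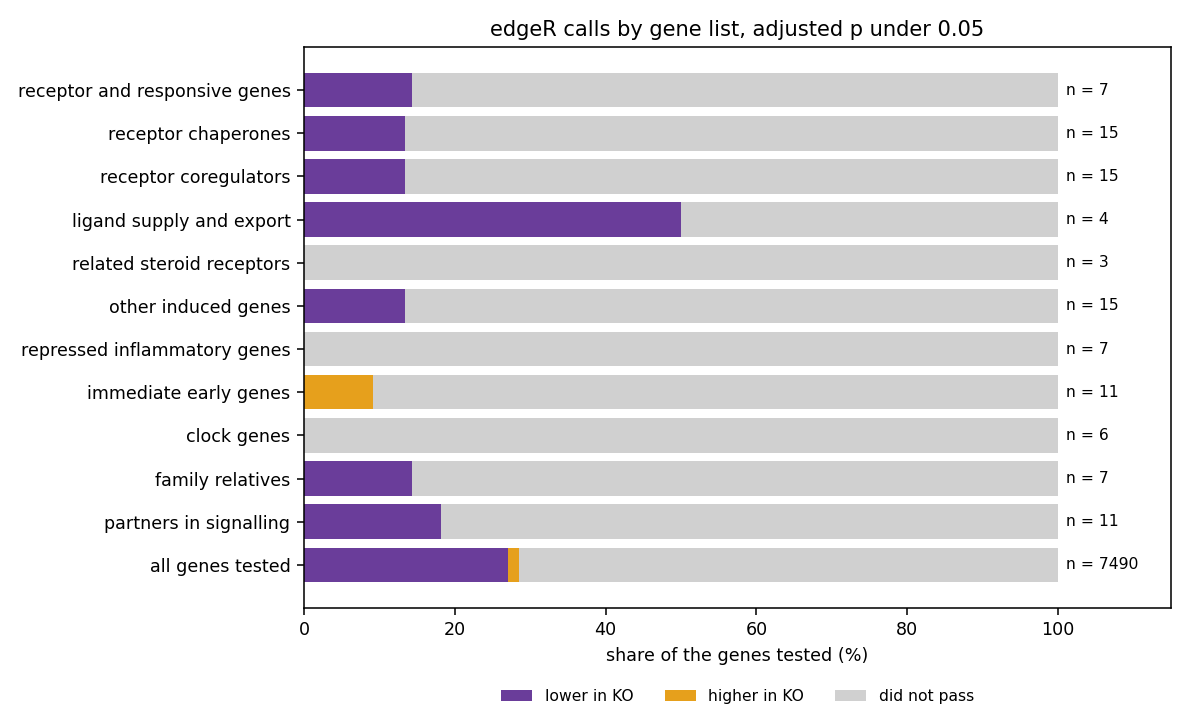
Share of tested genes called lower in KO, called higher in KO or not passed by edgeR at an adjusted p of 0.05, for each gene list and for all genes tested, with the number tested at the right. Apart from hormone supply, with 4 genes tested, the lists have a smaller lower share than the 27.1% of all genes. The lists are not matched to all genes for WT level. The lower share of all genes was 41% at 5 to 20 CPM in WT, 14.7% at 20 to 100 CPM and 1.01% at 100 CPM or more.

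Relatives and partners of the 7 genes gave a similar count. Among relatives, 1 of 7 tested was lower, Fkbp8, a mitochondrial FK506-binding protein gene with 1 count in KO and 3996 in WT (ratio of WT to KO 477, exact 95% interval 85.5 to 18840, edgeR adjusted p = 0.00163). Among partners, 2 of 11 tested were lower (by DESeq2, 2 lower and 1 higher of 13). Those lower by edgeR were Tsc2 and Tsc1, whose products form the tuberous sclerosis complex through which REDD1 acts on mTORC1. Tsc2 had 0 counts in KO and 3920 in WT, at least 156-fold lower (edgeR adjusted p = 0.00163). Tsc1 had 6 counts in KO and 2407 in WT (log2 fold change −4.68, SE 1.44), with an edgeR adjusted p of 0.0188, or 0.105 with RLE size factors. Fkbp8, Tsc2 and Tsc1 passed the filter on low counts through the WT libraries. They lay at 5 to 20 CPM in WT, where 41% of genes tested were lower. At that level 34.1% had 3 counts or fewer in each KO library, as Fkbp8, Tsc2 and Tsc1 had. Egfr, the kinase that MIG6 inhibits, had 1 count in KO and 125 in WT and did not pass the filter on low counts. All 125 WT counts came from WT library 5.

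The genes most like Nr3c1 and Tsc22d3 over the 10 libraries were found by Pearson correlation of log2(CPM + 1) among 5847 genes of at least 5 CPM, as a description. Nearest to Nr3c1 were Map4 (r = 0.98), Dach2 (r = 0.98) and Pde4b (r = 0.96). Map4 encodes a microtubule-associated protein, Dach2 a transcriptional cofactor and Pde4b a phosphodiesterase that breaks down cAMP. All had from 0 to 2 counts in their lowest KO library. Nearest to Tsc22d3 were Ppib (r = 0.98), S1pr4 (r = 0.97) and Ndufb11 (r = 0.96), with at most 15, 12 and 19 counts in any KO library. They encode a cyclophilin, a sphingosine-1-phosphate receptor and a subunit of respiratory complex I. The 10 points share library depth and group, and 44 and 52 genes exceeded r = 0.9 with Nr3c1 and Tsc22d3.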

How the data were processed

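Libraries of sorted lung ILC2 were made from total RNA with a kit that keeps strand, according to the labels' extraction protocol. The authors deposited raw read counts per gene, not normalized, 1 column per library. STAR 2.6.0c, SAMtools 1.8, HTSeq 0.9.1 and build GRCm38 are named in the submitters' processing notes. The sources used here do not state the annotation release or the strand setting. Positions and exon lengths come from GENCODE for GRCm38.

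Genes were filtered by filterByExpr (minimum count 10), scaled by TMM and tested with edgeR 4.0.16 (R 4.3.3), quasi-likelihood, KO against WT, with Benjamini-Hochberg adjustment over all genes at 0.05. SE is the log2 fold change divided by the square root of F. CPM use TMM-scaled library sizes. Alternatives used DESeq2 1.42.0, voom (limma 3.58.1), other scalings and filters, thinning and left-out libraries. The 7 genes and all lists were chosen with earlier results of these data known. Named genes are Maf, the 7, list members that passed (at most 4 per list, or the 2 highest in WT) and the 3 nearest to Nr3c1 and Tsc22d3. Some genes that this rule names are not reported here.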

Additional observations from a re-analysis of the deposited data

Results flagged for a closer look

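In 5 of the 14 sets of 5 libraries (7 genes, 2 groups), the highest library lay apart from the rest by Dixon's test. Its nominal rate of about 1 in 20 need not hold for counts with many zeros. The share of all genes tested that it would flag was not computed. Of the 4528 genes tested with at least 100 KO counts, 40.8% had over 95% of them in 1 KO library. The flags therefore cannot be called particular to these genes. All 5 flags were in KO, and that of Errfi1 is a single count among zeros, which the test always marks. Tsc22d3 stood at 31.9 CPM in KO library 1, with 0.53 CPM in the next KO library. Fkbp5 stood at 357 CPM in KO library 3, with 1.27 CPM in the next. Sgk1 stood at 805 CPM in KO library 4, with 1.27 CPM in the next. Ddit4 stood at 304 CPM in KO library 2, with 6.07 CPM in the next. Errfi1 stood at 0.138 CPM in KO library 4, which is 1 count, with 0 in the others. The separated library was not the same for these genes: library 4 for both Sgk1 and Errfi1, and a different one for each other gene.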

How the results depend on the processing

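Genes lower over all genes, 2027 by edgeR, numbered 3059 with a minimum of 1 CPM in 3 libraries, 3291 without KO libraries 1 and 5, 1250 with counts thinned to the smallest total, and 1734 to 3350 with 1 library left out. Genes higher, 112 by edgeR, numbered 193 with RLE size factors, 49 with library size alone, 71 with voom, 1512 with DESeq2, 2345 with no filter, 301 with the 1 CPM minimum, 348 without KO libraries 1 and 5, 55 when thinned, and 82 to 333 with 1 library left out. Of the 7 genes, 1 lower became 2 without KO libraries 1 and 5 and 0 to 2 with 1 library left out (2 without KO library 1, 3 or 4; 0 without WT library 2, 3, 4 or 5, where Errfi1 was not tested), and 0 higher became 0 to 1 (1 without KO library 1). The log2 fold change turned sign for Tsc22d3 with RLE (0.86) and DESeq2 (0.78). For Fkbp5 it turned with library size alone (−0.64), voom (−4.99), no filter (−0.0149) and as the mean difference of the exact permutation test (−3.60), and ranged from −6.46 to 0.68 with 1 library left out. For Per1 it turned with RLE (0.17), DESeq2 (0.14) and without KO libraries 1 and 5 (0.60), and ranged from −0.68 to 0.22 with 1 library left out. For Sgk1 it turned with voom (−3.12) and as the mean difference (−1.39), with −4.99 to 4.10 when 1 library was left out, and for Ddit4 with voom (−0.97), with −1.15 to 4.63. The cause of these turns was not tested. Errfi1 was lower in the 15 alternatives that tested it (adjusted p 0.000856 to 0.0267), where it passed any filter on low counts through the WT libraries alone, and was removed before testing in the other 5, which say nothing of its stability. The scaling moved the median log2 fold change of all genes by 0.56 with RLE and −1.36 with library size alone, and voom, another model, differed by −3.11. No paired analysis was possible because the library numbers come from the order of deposit and pair no KO with a WT library. Shallow KO libraries limit what can be seen of genes at a few CPM.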
